A study of Mus musculus with 11 samples.

Results

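Gata3, Bcl11b, Ets1, Ets2, Lef1 and Tox are 6 genes for transcription factors known for roles in T cell development. Their levels were followed in mouse blood progenitors from the haematopoietic stem cell to the DN3 thymocyte. The 6 were chosen by name, with earlier results of these data known. Counts of them set against all genes therefore describe the 6 and do not test them as a group. Each had 1 probe set annotated to its symbol alone, among 19938 genes measured in this way. Messenger RNA was measured on 11 Affymetrix arrays, 1 per sample, with total RNA of cells purified from C57BL/6J mice. The mice carried no transgene or treatment that the labels name, and no label gives their age. Bone marrow gave 3 populations with 2 arrays each: haematopoietic stem cells (HSC), multipotent progenitors primed for lymphoid fates (LMPP), and the common lymphoid progenitor (CLP). Thymus gave the early thymic precursor (ETP) with 2 arrays, the double negative 2 stage (DN2) with a single array, and the double negative 3 stage (DN3) with 2 arrays. For all thymic samples the free-text description says bone marrow; the tissue label and the design text say thymus, and these were followed. No source used here gives the gates for purification.

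T cells arise from marrow progenitors that enter the thymus and there receive signals through Notch receptors. ETP can still give rise to other blood cells, DN2 cells pass through commitment to the T lineage, and DN3 cells rearrange the T cell receptor beta locus. Gata3 is a zinc finger factor and Tox an HMG box factor, both known to be needed in T cell development. Bcl11b is a zinc finger factor known for its part in T lineage commitment. Ets1 and Ets2 are closely related factors of the ETS family. Lef1, an HMG box partner of beta-catenin, works beside the related factor Tcf7.

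The 6 genes fell into 3 patterns. Gata3 and Tox were higher in ETP than in the marrow progenitors. Bcl11b was flat up to ETP and stood highest in DN2 and DN3. Ets1, Ets2 and Lef1 rose between DN2 and DN3. These patterns overlap, since Gata3, Ets1 and Lef1 also had their highest means in DN3 and DN2. Levels are log2 intensities, so that a difference of 1 is a fold of 2, and levels of different genes are not ranked against each other, since probe sets differ in brightness. A gene was called where limma's moderated test gave a Benjamini-Hochberg adjusted p under 0.05 over all 19938 genes. In the F test over the 6 populations all 6 genes were called, against 12.2% of all genes. Adjusted p ran from 5.22e-07 for Lef1 to 0.00346 for Bcl11b. Whether 2 replicates were separate mice, pools or repeats of 1 extract is not stated, so the p-values measure the spread between these arrays, which may be technical. DN2 was assumed to vary like the populations with 2 arrays.

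**Figure D1:**
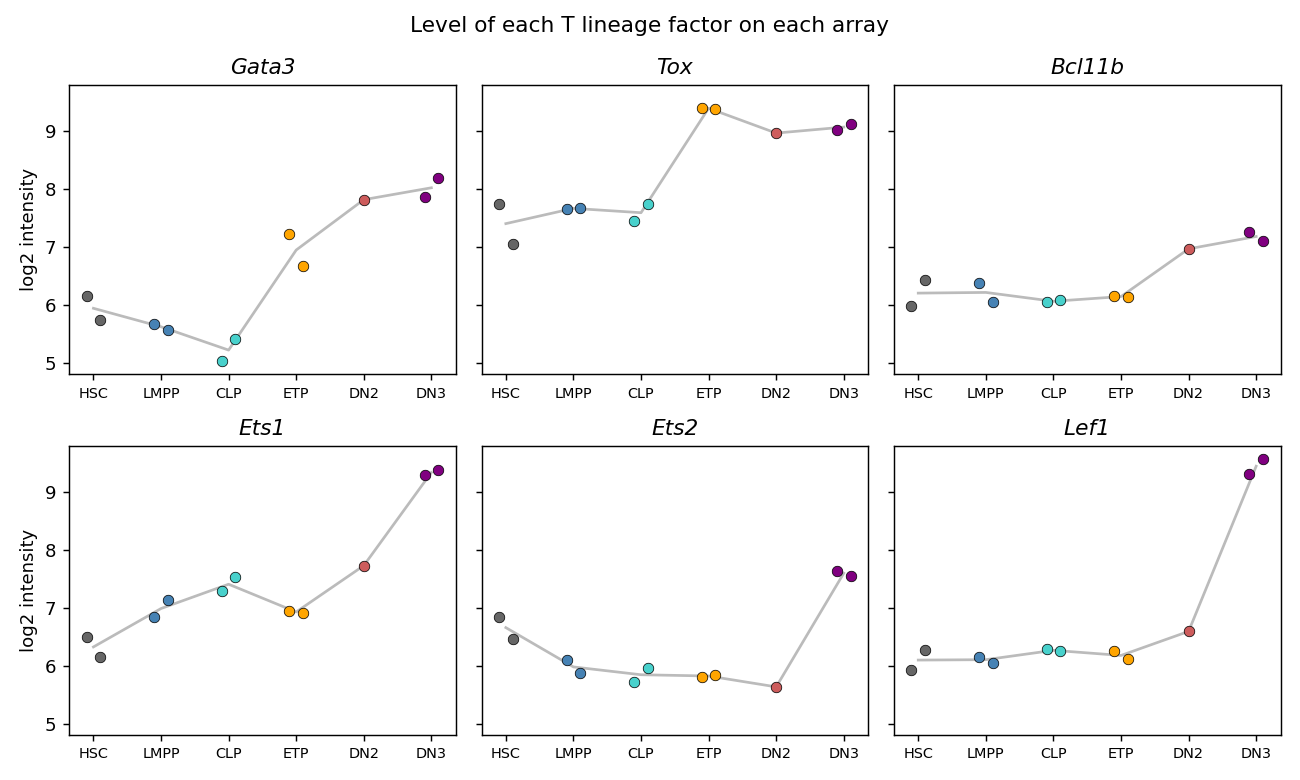
Log2 intensity (vertical axis) of the 6 genes on each of the 11 arrays, by population (horizontal axis); each point is 1 array and the grey line joins the group means. Gata3 and Tox step up at ETP. Bcl11b lies highest on the DN2 and DN3 arrays (its DN2 step over ETP was not called), as do Gata3, Ets1 and Lef1. Ets1, Ets2 and Lef1 step up at DN3, where Lef1 goes from 6.59 on the DN2 array to 9.31 and 9.57.

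The mean over each population's marker list was highest in that population. Single markers did not all follow their list. Il2ra, a DN2 and DN3 marker, was already 3.06 higher in ETP than in LMPP (limma adjusted p = 3.79e-05). Slamf1, an HSC marker, rose by 1.34 from ETP to DN3 (limma adjusted p = 0.00152). The HSC markers had a mean level of 7.33 to 7.34 in HSC and at most 6.73 elsewhere, and the DN3 markers 9.46 to 9.47 in DN3 and at most 7.81 elsewhere. Il2ra, Kit, Cd44 and Thy1 are commonly used to sort these cells, so their levels may have been set by the gates. Replicate arrays correlated at 0.988 to 0.996 over all genes, and array medians lay between 6.01 and 6.12. The median of all gene values was 6.18. The deposited values carry no detection calls, so a level near that median may be background, and a fold measured from it may be too small. Among markers of other cells, the myeloid list was higher in ETP (7.56 to 7.74 over its 6 genes) than in LMPP (6.81 to 7.00). The B lineage list stood at 7.15 to 7.43 in CLP and at most 6.15 elsewhere, with Ebf1 at 9.32 and 9.22 in CLP.

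Promoter sequences in the RefSeq table (assembly GRCm38.p6) covered 4 of the 6 genes: Gata3, Bcl11b, Ets2 and Lef1. The 250 bases before the start site are shown for 3 of them, Bcl11b because its window alone held a searched motif, and Ets2 and Lef1 because they rose together at DN3. The capitals mark the TCF/LEF motif CTTTGAA. The Bcl11b window is chr12:108003415-108003664 on the minus strand, the Ets2 window chr16:95702157-95702406 on the plus strand, and the Lef1 window chr3:131110047-131110296 on the plus strand. For Lef1 the most upstream of 4 windows in the table was taken.
Bcl11b: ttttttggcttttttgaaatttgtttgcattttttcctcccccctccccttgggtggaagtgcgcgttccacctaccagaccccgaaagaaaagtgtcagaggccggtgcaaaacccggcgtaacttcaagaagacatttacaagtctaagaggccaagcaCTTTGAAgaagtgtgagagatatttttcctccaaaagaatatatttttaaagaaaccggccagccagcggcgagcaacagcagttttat
Ets2: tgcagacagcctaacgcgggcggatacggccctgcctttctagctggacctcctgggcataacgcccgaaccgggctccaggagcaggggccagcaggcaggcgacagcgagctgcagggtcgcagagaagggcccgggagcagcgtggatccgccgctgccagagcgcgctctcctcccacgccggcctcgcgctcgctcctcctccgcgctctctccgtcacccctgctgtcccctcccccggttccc
Lef1: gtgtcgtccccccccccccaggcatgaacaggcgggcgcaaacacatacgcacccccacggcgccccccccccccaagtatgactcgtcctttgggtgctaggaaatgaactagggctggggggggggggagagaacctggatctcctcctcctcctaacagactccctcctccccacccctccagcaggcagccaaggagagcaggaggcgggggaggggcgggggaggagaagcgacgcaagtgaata
The motif lay 89 to 83 bases before the Bcl11b start, and 4.46% of the 32851 windows of this length in the table held it on either strand. A further 8 motifs were searched on both strands. Those of GATA factors were AGATAA, found in 9.99% of windows, and TGATAA, found in 7.94%. The second TCF/LEF form, CTTTGAT, was found in 3.21% and the RUNX motif TGTGGT in 14.0%. The ETS motif CGGAAG was found in 13.6%, and the E boxes CAGCTG and CAGGTG in 13.0% and 17.2%. The motif TGGGAA of RBPJ, the factor through which Notch acts, was found in 21.6%. None of these 8 was present in the Bcl11b window, and none of the 9 in the Gata3, Ets2 and Lef1 windows. A match is a match of letters and shows no binding. The share of G and C was 44.8% for Bcl11b, 66.4% for Lef1, 70.0% for Gata3 and 71.6% for Ets2, against a median of 52.4% over all windows.

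Gata3 (probe set 10479981) was low in marrow and high in thymus. Its levels were 6.15 and 5.74 in HSC, 5.68 and 5.57 in LMPP, 5.04 and 5.41 in CLP, 7.22 and 6.67 in ETP, 7.82 in DN2, and 7.85 and 8.19 in DN3. Every thymic array lay above every marrow array. From LMPP (5.63 ± 0.07, SD, n = 2) to ETP (6.95 ± 0.39, SD, n = 2) Gata3 rose by 1.32 (SE 0.21, limma adjusted p = 0.00888), a fold of 2.50. That call was lost without LMPP replicate 1 (adjusted p = 0.0513), LMPP replicate 2 (adjusted p = 0.0688) or ETP replicate 1 (adjusted p = 0.0766), each with limma, and held in 15 of 18 alternative fits (adjusted p from 0.00466 to 0.0766). Over CLP, where Gata3 was lowest, ETP was higher by 1.72 (limma adjusted p = 0.00144), which held in every alternative fit run.

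Gata3 went on to DN3, which was higher than ETP by 1.07 (limma adjusted p = 0.0118). The DN3 call over ETP was lost without ETP replicate 2, where the difference was 0.80 (limma adjusted p = 0.112), and without DN3 replicate 2, where it was 0.91 (limma adjusted p = 0.136). The DN2 array lay 0.87 above ETP (limma adjusted p = 0.290) and 0.20 below DN3, and neither difference was called. In the order of the 6 populations, DN3, DN2, ETP, HSC, LMPP and CLP, the only neighbours called apart were ETP and HSC, by 1.00 (limma adjusted p = 0.0213). That call too was lost without HSC replicate 2 (limma adjusted p = 0.127) or ETP replicate 1 (limma adjusted p = 0.181).

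Tox (probe set 10511416) had its highest mean in ETP. Its levels were 7.75 and 7.06 in HSC, 7.66 and 7.67 in LMPP, 7.44 and 7.74 in CLP, 9.40 and 9.38 in ETP, 8.96 in DN2, and 9.02 and 9.12 in DN3. The lowest thymic array stood more than 1 log2 unit above the highest marrow array. ETP was above LMPP by 1.73 (SE 0.19, fold 3.31, limma adjusted p = 0.000960) and above CLP by 1.80 (fold 3.48, limma adjusted p = 0.000543). Both calls held in every alternative fit run.

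Within the thymus Tox was not called in any comparison. DN2 lay 0.43 below ETP (limma adjusted p = 0.876) and DN3 0.32 below ETP (limma adjusted p = 0.522). Among neighbours in its order, ETP, DN3, DN2, LMPP, CLP and HSC, only DN2 and LMPP were called apart, by 1.30 (limma adjusted p = 0.0151). Leaving out LMPP replicate 1 or LMPP replicate 2 ended that call (limma adjusted p = 0.0629 and 0.0589).

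From LMPP to ETP, Gata3 and Tox were thus the 2 of 6 factors called higher, against 1.44% of all genes called higher. The median difference was 0.0071 over the 6 factors and -0.029 over all genes. The comparisons of ETP with LMPP and with CLP share the ETP arrays, and from CLP to ETP the same count of 2 stood against 1.41% of all genes. Among the 6 myeloid markers, S100a8 rose by 3.06 (limma adjusted p = 0.000170) and Elane by 1.29 (limma adjusted p = 0.00888) from LMPP to ETP. The part of the myeloid markers, or of the cells with Il2ra, in the Gata3 and Tox differences was not tested.

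Bcl11b (probe set 10402554) was flat up to ETP and higher in the later thymic stages. Its levels were 5.98 and 6.43 in HSC, 6.38 and 6.05 in LMPP, 6.05 and 6.08 in CLP, 6.16 and 6.13 in ETP, 6.97 in DN2, and 7.26 and 7.11 in DN3. The 8 arrays from HSC to ETP lay within 0.45 of one another and close to the median of all gene values, while DN2 and DN3 stood above all of them. From ETP (6.15 ± 0.02, SD, n = 2) to DN3 (7.18 ± 0.10, SD, n = 2) Bcl11b rose by 1.04 (SE 0.16, fold 2.05, limma adjusted p = 0.00264). The DN2 array was already 0.82 above ETP and 0.21 below DN3, and neither difference was called. DN2 was above CLP by 0.90 (limma adjusted p = 0.0400), a call that held in 10 of 17 alternative fits and was lost without any 1 of the CLP, ETP or DN3 arrays (limma adjusted p from 0.0164 to 0.138 over the fits). No neighbours in its order, DN3, DN2, LMPP, HSC, ETP and CLP, were called apart.

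From ETP to DN2 none of the 6 factors was called with limma, against 0.998% of all genes. At an unadjusted p under 0.05, 4 of 6 passed, against 7.19% of all genes: Gata3, Bcl11b, Ets1 and Lef1, each higher in the single DN2 array. The median difference over the 6 factors was 0.61, against -0.0023 over all genes.

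Ets1 (probe set 10584142) rose in small steps in marrow and in a large one at DN3. Its levels were 6.50 and 6.15 in HSC, 6.84 and 7.14 in LMPP, 7.29 and 7.52 in CLP, 6.95 and 6.91 in ETP, 7.73 in DN2, and 9.29 and 9.37 in DN3. Both DN3 arrays stood far above the other 9 arrays, among which the HSC arrays were the lowest. DN3 (9.33 ± 0.06, SD, n = 2) was above DN2 by 1.61 (SE 0.19, fold 3.04, limma adjusted p = 0.00128) and above ETP by 2.40 (fold 5.29, limma adjusted p = 3.78e-06). In marrow, CLP was above HSC by 1.08 (limma adjusted p = 0.00170). The step from HSC to LMPP was 0.66 (limma adjusted p = 0.0497), a call that held in 5 of 18 alternative fits (limma adjusted p from 0.0373 to 0.238). DN3 and DN2 were the only neighbours called apart in its order, DN3, DN2, CLP, LMPP, ETP and HSC.

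Ets2 (probe set 10437160) was high at both ends and low between them. Its levels were 6.85 and 6.47 in HSC, 6.09 and 5.87 in LMPP, 5.73 and 5.96 in CLP, 5.81 and 5.84 in ETP, 5.64 in DN2, and 7.64 and 7.56 in DN3. From LMPP to DN2 it lay below the median of all gene values, so the folds measured from there may be too small. DN3 (7.60 ± 0.06, SD, n = 2) was above DN2 by 1.96 (SE 0.18, fold 3.89, limma adjusted p = 0.000264) and above HSC, the next in the order, by 0.94 (limma adjusted p = 0.00214). HSC was in turn above LMPP by 0.68 (limma adjusted p = 0.0389). This last call held in 8 of 18 alternative fits (limma adjusted p from 0.0180 to 0.205). LMPP, CLP, ETP and DN2 were not called apart as neighbours.

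Ets1 and Ets2 thus moved in opposite directions from HSC to LMPP and in the same direction from DN2 to DN3. From HSC to LMPP they were the 2 of 6 factors called, 1 in each direction, against 2.94% of all genes (1.71% lower). From LMPP to CLP none of the 6 was called with limma, against 1.14% of all genes, and Ets1 alone passed at an unadjusted p under 0.05, against 8.5% of all genes. The log2 difference Ets1 minus Ets2 within an array was -0.34 and -0.32 in HSC, 0.75 and 1.27 in LMPP, 1.56 and 1.56 in CLP, 1.14 and 1.07 in ETP, 2.09 in DN2, and 1.65 and 1.82 in DN3. Its sign says nothing of which gene is more abundant, since the probe sets differ in brightness, and only its change between arrays is read. HSC stood apart at the low end, and LMPP replicate 1 also lay below every thymic array. LMPP replicate 2 and both CLP arrays lay within the range of the thymic arrays. Its mean was 1.55 ± 0.44 (SD, n = 5) in thymus and 0.74 ± 0.89 (SD, n = 6) in marrow, a difference of 0.81 (exact permutation test, two-sided, p = 0.115, 462 splits, smallest possible p = 0.0022). Arrays of 1 population resemble each other and are not independent, so this p is a rough guide.

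Lef1 (probe set 10496091) had the largest range of the 6, 3.34 between its highest and lowest group means. Its levels were 5.93 and 6.27 in HSC, 6.16 and 6.05 in LMPP, 6.29 and 6.25 in CLP, 6.25 and 6.11 in ETP, 6.59 in DN2, and 9.31 and 9.57 in DN3. The 8 arrays from HSC to ETP lay within 0.36 of one another and around the median of all gene values. DN3 (9.44 ± 0.18, SD, n = 2) was above DN2 by 2.85 (SE 0.18, fold 7.20, limma adjusted p = 1.35e-05) and above ETP by 3.26 (fold 9.60, limma adjusted p = 2.94e-07). Among all 19938 genes this was the rise of rank 9 from DN2 to DN3 and of rank 19 from ETP to DN3. DN3 and DN2 were the only neighbours called apart in the order DN3, DN2, CLP, ETP, LMPP and HSC.

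From DN2 to DN3, then, 3 of 6 factors rose, Ets1, Ets2 and Lef1, against 0.702% of all genes called higher. Over the alternative fits these differences ran from 1.56 to 1.65 for Ets1, 1.89 to 2.00 for Ets2 and 2.72 to 2.98 for Lef1. No fit of this step could leave out the single DN2 array, so its part in the 3 calls was not tested. Gata3, Bcl11b and Tox differed by 0.20, 0.21 and 0.10 over the same step, each with a limma adjusted p of 1. From ETP to DN3, which shares the DN3 arrays, 5 of 6 rose, all but Tox, against 2.68% of all genes. The median difference was 1.42 over the 6 and -0.0029 over all genes. DN3 was above CLP for 6 of 6, against 4.51% of all genes, above LMPP for 6 of 6, against 5.46%, and above HSC for 6 of 6, against 4.17%. Against HSC, 2 were called in CLP (Ets1 higher, Ets2 lower), with 6.28% of all genes. In ETP 3 were called against HSC (Gata3 and Tox higher, Ets2 lower), with 5.13% of all genes, and in DN2 4 (Gata3, Ets1 and Tox higher, Ets2 lower), with 3.99%. DN2 was above LMPP for 2 of 6, Gata3 and Tox, against 1.69% of all genes, and above CLP for 3 of 6, which adds Bcl11b, against 1.32%. The call of Ets2 in CLP against HSC was lost without HSC replicate 1 (limma adjusted p = 0.0573) or CLP replicate 1 (limma adjusted p = 0.0718). Its call in ETP was lost without HSC replicate 1, ETP replicate 1 or ETP replicate 2 (limma adjusted p = 0.0538, 0.0654 and 0.0546), and that of Tox in DN2 against CLP without CLP replicate 1 (limma adjusted p = 0.0638).

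**Figure D2:**
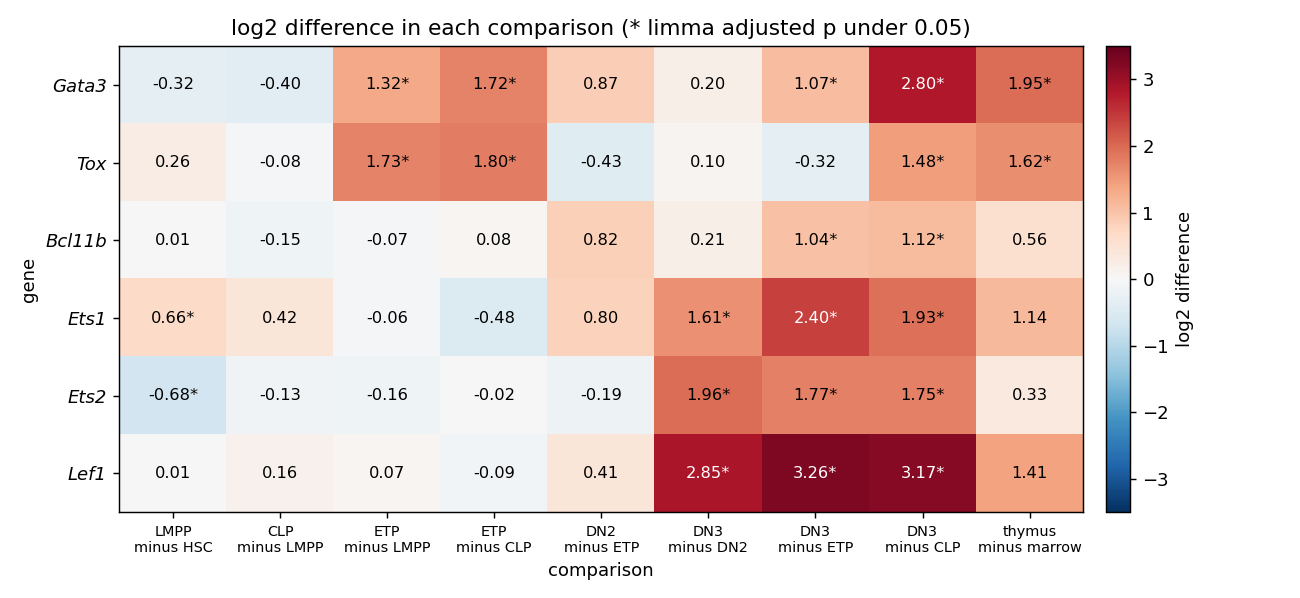
Log2 difference (colour and printed value) of each gene (rows) in 9 comparisons (columns); red is higher and blue lower in the first-named population, and a star marks a limma adjusted p under 0.05. Gata3 and Tox carry the stars for ETP minus LMPP (1.32 and 1.73), and Ets1, Ets2 and Lef1 those for DN3 minus DN2 (1.61, 1.96 and 2.85).

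**Figure D3:**
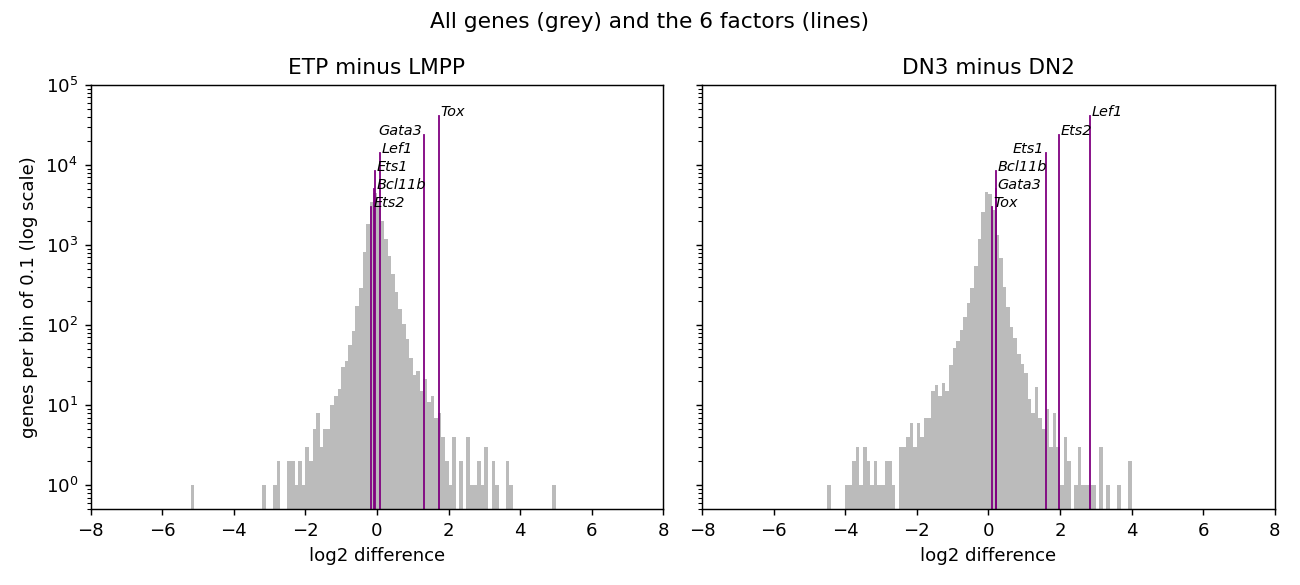
Number of genes (vertical axis, log scale) per bin of 0.1 in log2 difference (horizontal axis) for ETP minus LMPP (left) and DN3 minus DN2 (right); grey bars are all 19938 genes and purple lines the 6 factors. Gata3 and Tox lie in the right tail on the left, and Ets1, Ets2 and Lef1 in the right tail on the right, with the other factors near 0.

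Between the tissues as a whole, Gata3 was 1.95 higher in thymus (limma adjusted p = 0.00462, fold 3.87) and Tox 1.62 higher (limma adjusted p = 0.000195, fold 3.08). These were 2 of 6, against 1.45% of all genes called higher. In this comparison of 5 with 6 arrays the differences between populations of a tissue count as spread. Arrays of 1 population are not independent, so the p-values of this comparison are a rough guide. Each population came from 1 tissue only, so tissue and stage cannot be told apart. When the mean of the 3 thymic populations was set against that of the 3 marrow populations within the fit of 6 group means, 5 of 6 were called higher, with Bcl11b, Ets1 and Lef1 added, against 5.95% of all genes called higher in that contrast. There the differences between populations of a tissue do not count as spread. In ETP, Bcl11b, Ets1 and Lef1 had means of 6.15, 6.93 and 6.18, close to their marrow means of 6.16, 6.91 and 6.16.

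Genes of the same families were read for the same steps. Of 6 GATA genes measured, Gata3 alone was called from ETP to DN3, against 2.68% of all genes called higher and 3.89% lower. Gata2, known for its role in stem cells, was at 7.50 and 7.23 in HSC and at 6.57 and 6.76 in LMPP. Its fall of 0.70 (limma adjusted p = 0.0150) was lost without HSC replicate 1 or LMPP replicate 1. Of 6 GATA cofactors, none rose from ETP to DN3 and 2 fell, against 3.89% of all genes called lower. They were Lmo2, a bridging protein of GATA and SCL complexes, with a difference of -2.92 (limma adjusted p = 5.76e-06), and Lyl1, an SCL relative, with one of -1.13 (limma adjusted p = 0.000372).

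The 2 BCL11 genes went opposite ways from ETP to DN3. Bcl11a, known for its role in B cells and progenitors, was at 9.60 and 9.33 in ETP, 8.46 in DN2, and 7.12 and 6.97 in DN3. It fell by 2.42 on the log2 scale (SE 0.22, fold 5.35, limma adjusted p = 5.38e-05), while Bcl11b rose by 1.04. From ETP to DN3, 2.68% of all genes were called higher and 3.89% lower, and from DN2 to DN3 1.09% were called lower. The fall of Bcl11a from DN2 to DN3, -1.42 (limma adjusted p = 0.0242), was lost without DN3 replicate 1 (limma adjusted p = 0.0948), without DN3 replicate 2 (limma adjusted p = 0.159) and with centred arrays (limma adjusted p = 0.0571).

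Of 25 ETS genes measured, 3 rose and 4 fell from ETP to DN3, against 2.68% of all genes called higher and 3.89% lower. The list's median difference was -0.018, against -0.0029 over all genes. Beside Ets1 and Ets2, Spib rose by 0.77 (limma adjusted p = 0.0360), a call lost without any 1 of the LMPP, ETP or DN3 arrays. Spi1, the myeloid and progenitor factor PU.1, was at 7.40 and 7.80 in ETP, 6.69 in DN2, and 5.83 and 5.83 in DN3, and fell by 1.77 on the log2 scale (limma adjusted p = 0.000180). Erg, a stem cell factor, fell by 1.19 on the log2 scale (limma adjusted p = 0.000560). Elk3 fell by 1.05 on the log2 scale (limma adjusted p = 0.00106). For Etv6 the difference was -1.09 (limma adjusted p = 0.0131), a call lost without any 1 of the ETP or DN3 arrays.

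Of 11 genes in the list of Lef1 relatives and partners of beta-catenin, Lef1 rose and Tcf7l2 fell from ETP to DN3. Over that step 2.68% of all genes were called higher and 3.89% lower. The fall of Tcf7l2, -0.94 (limma adjusted p = 0.0229), was lost with centred arrays and without ETP replicate 1 or DN3 replicate 1. Tcf7 was not analysed here. Of 4 TOX genes, Tox3 alone was called from ETP to DN3, against the same shares of all genes. Tox3 rose by 0.82 (limma adjusted p = 0.00937), from levels below the median of all gene values. That call was lost without ETP replicate 1, DN3 replicate 1 or DN3 replicate 2.

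**Figure D4:**
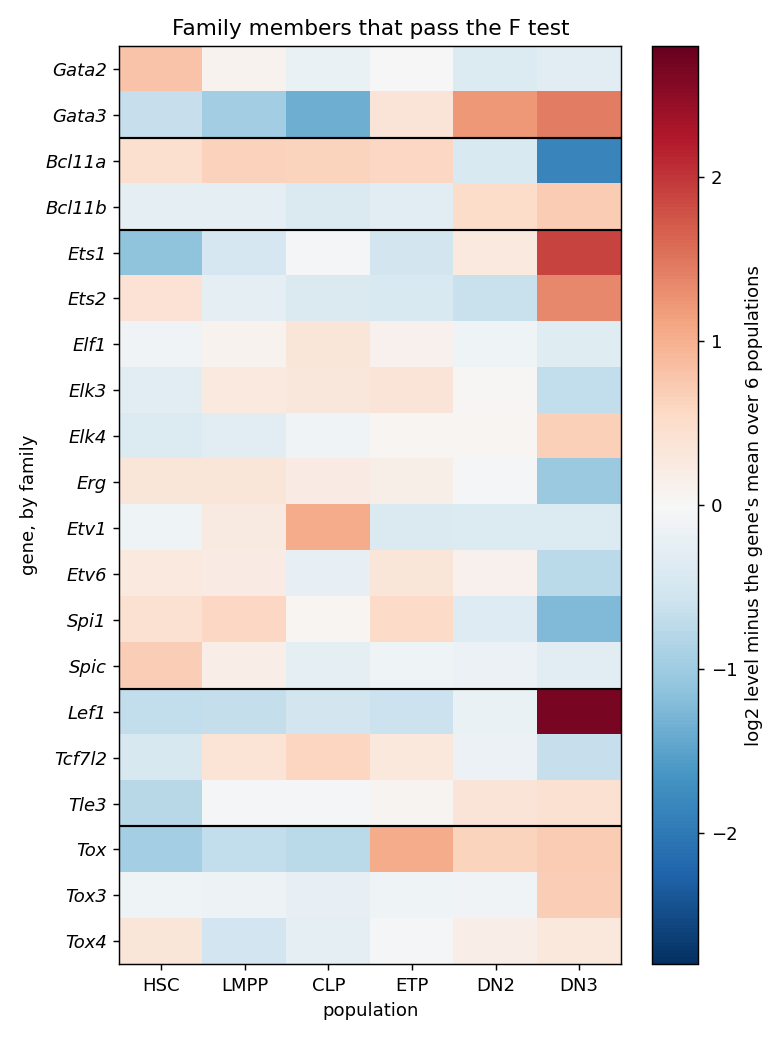
Group mean of each family member that passes the F test (20 rows, by family; black lines part the families) in each population (columns), as log2 level minus the gene's mean over the 6 populations; red is above and blue below that mean. Bcl11a, Spi1 and Erg are lowest in DN3, where Bcl11b, Ets1, Ets2 and Lef1 are highest.

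Other T lineage regulators, T lineage effector genes and progenitor regulators were read from 3 more lists. These were chosen by name for such roles, so their counts describe the lists and do not test them. Among 20 measured regulators of the T lineage other than the 6, 5 rose and 1 fell from ETP to DN3, against 2.68% of all genes called higher and 3.89% lower. Tcf12, an E protein, rose by 1.68 (limma adjusted p = 8.38e-05), and Hhex, a homeobox factor of progenitors, fell by 4.51 on the log2 scale (limma adjusted p = 7.89e-08). Of the 5 rises, 3 were called when ETP replicate 1 was left out, and 2 when ETP replicate 2 or DN3 replicate 2 was. At the earlier step from LMPP to ETP, the Notch target Hes1 went from 6.16 and 5.97 to 8.19 and 8.27. It rose by 2.17 (SE 0.12, fold 4.49, limma adjusted p = 1.41e-05). Nfatc3 rose by 0.65 (limma adjusted p = 0.0302), a call lost without any 1 of the LMPP, ETP or DN3 arrays.

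Some T lineage effector genes were called higher at each step from LMPP to DN3. Their list was drawn up of genes known from T cells, so rises toward DN3 follow in part from its choice. It also holds Il2ra and Thy1, whose levels may have been set by the gates. Taken step by step, 11 to 16 of the 23 measured were not called. Of the 23, 7 rose and none fell from LMPP to ETP, where 1.44% of all genes were called higher. From ETP to DN2 9 rose and none fell, where 0.321% of all genes were called higher. From DN2 to DN3 12 rose and none fell, where 0.702% of all genes were called higher. Set against CLP, ETP was higher for 7 and lower for 4, with 1.41% of all genes called higher and 1.1% lower. The 4 were Rag1 (-3.92, limma adjusted p = 9.44e-07) and Rag2 (-1.76, limma adjusted p = 0.000125), genes of the recombinase, the cytokine receptor gene Il7r (-3.16, limma adjusted p = 4.66e-06) and the costimulatory receptor gene Cd28 (-1.79, limma adjusted p = 0.0174). The Cd28 call was lost without CLP replicate 1, ETP replicate 1 or ETP replicate 2 (limma adjusted p = 0.0905, 0.115 and 0.112). From ETP to DN3, 18 rose and 1 fell, against 2.68% of all genes called higher and 3.89% lower. The median difference was 1.65 against -0.0029 over all genes. Largest were the rises of Cd3d (5.90, limma adjusted p = 8.24e-07), Themis (4.99, limma adjusted p = 1.32e-07), Cd3g (4.84, limma adjusted p = 2.83e-05) and the recombinase gene Rag1 (4.48, limma adjusted p = 1.07e-07). The gene that fell was Cd27, a costimulatory receptor gene, with a difference of -0.76 (limma adjusted p = 0.00711). That call was lost without any 1 of ETP replicate 1, ETP replicate 2 or DN3 replicate 2. The 12 calls from DN2 to DN3 became 7 without either DN3 array.

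Progenitor regulators went the other way. Their list was drawn up of genes known to be lost at commitment, so falls at DN3 follow from its choice. Of 21 measured, 14 fell and none rose from ETP to DN3, against 3.89% of all genes called lower. The median difference was -1.19. Genes such as Hhex and Lmo2 also stand in lists above, so this count is not independent of those. Beside Hhex, the largest falls were those of the receptor gene Flt3 (-3.52, limma adjusted p = 1.94e-07), Mef2c (-3.48, limma adjusted p = 1.94e-07) and Meis1 (-3.04, limma adjusted p = 2.33e-06). From LMPP to ETP, where Gata3 and Tox rose, 8 fell, against 0.868% of all genes, and 1 rose, namely Id2, an inhibitor of E proteins, by 1.80 (limma adjusted p = 0.000497). The 8 became 5 without LMPP replicate 1, LMPP replicate 2 or ETP replicate 1.

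Markers of later and other cells were read at DN3. In the list of 6 mature T cell genes the mean was 6.54 to 6.66 in DN3 and 5.91 in DN2. Over that step 2 of 6 rose, against 0.702% of all genes called higher. Cd28 rose by 3.13 (limma adjusted p = 0.00215) and Cd8b1 by 1.00 (limma adjusted p = 0.0163). Cd4 (5.49 and 5.27 in DN3) and Cd8a (5.62 and 5.61 in DN3) lay below the median of all gene values in every population. These last genes were picked from the list after their values were seen. The natural killer list of 8 genes had a mean of 5.57 to 5.63 in DN3 and 5.48 in DN2. Its largest difference from DN2 to DN3, 1.65 for Gzma, a granzyme gene at 11.16 and 11.21 in DN3, was not called (limma adjusted p = 0.0636). From ETP to DN3, 1 of the 8 rose, Gzma by 4.09 (limma adjusted p = 1.23e-05). Over the same step 1 fell, Klrd1, with a difference of -3.22 (limma adjusted p = 1.43e-05). Of all genes, 2.68% were called higher and 3.89% lower from ETP to DN3. Klrb1c and Ncr1, also picked after their values were seen, stayed between 3.32 and 4.40 on all 11 arrays. The stromal and epithelial list had a mean of 6.80 to 6.85 in DN3 and 6.67 in DN2, and 1 of its 6 genes rose, with Epcam at 7.20 and 7.23 in DN3 and 5.36 in DN2. The part of these markers in the rises of Ets1, Ets2 and Lef1 was not tested.

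Each factor was also set beside the genes whose level followed it most closely. Among 2329 genes that passed the F test and met the naming rule, the likeness was Pearson's r over the 11 arrays, which share their populations, so r is given as a description. Gata3 was closest to Thy1 (0.959), the gene of a T cell surface protein, then to Ehd3, Dnajc6, Dnah8 and Frmd4a. Tox was closest to Tbcel (0.964), then to Hes1 (0.949), Ppid, Bcl2l14 and Appl1. Hes1 shared with Tox the step at ETP, with group means of 6.06 in LMPP and 8.23 in ETP. Bcl11b was closest to Mrpl58 (0.977), then to Fam169b, Pla2g12a, Ddc and Glt8d2.

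The 3 factors that rose at DN3 had different nearest genes. Ets1 was closest to Ppt1 (0.982), then to Gngt2, the T cell receptor zeta chain gene Cd247 (0.976), Hsdl2 and Endou. Ets2 was closest to Glcci1 (0.954), then to Focad, Fubp3, Gsr and Ptpn14. Lef1 was closest to Dgkeos (0.996), then to the kinase gene Camk4 (0.992), the T cell receptor complex gene Cd3e (0.991), Tshz2 and Epcam (0.990). Among the 15 pairs of the 6 factors, r over the 11 arrays was highest for Ets1 and Lef1 (0.929) and for Bcl11b and Lef1 (0.854). It was 0.847 for Gata3 and Tox and lowest, at 0.169, for Ets2 and Tox.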

How the data were processed

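The study measured messenger RNA in 6 sorted populations on 11 Affymetrix arrays. The authors made log2 intensities with RMA, per the submitters' processing notes, and deposited these values, whose log2 scale was read from their range. No source used here gives the RMA version or a genome build. Of 35556 probe sets, 21789 had 1 gene symbol in the annotation given, 1621 several and 12146 none, and those with 1 were used. For 999 genes with several probe sets the one with the highest mean was taken, which left 19938 genes; the Entrez IDs of 21698 probe sets matched the RefSeq table. Dim genes were kept. Depth does not apply to arrays; their number limits the precision.

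Groups followed the sample titles. One fit of 6 group means with limma 3.58.1 in R 4.3.3 (5 residual degrees of freedom) gave the F test and all 15 pairs of populations, two-sided, adjusted by Benjamini-Hochberg over the 19938 genes. Thymus and marrow were compared in a separate fit of 2 groups. The limma script was tested on simulated data. Sequence, promoter and figure steps used Python 3.11.15 with pandas 2.3.3 and matplotlib 3.10.9.

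The members and the 21 gene lists were chosen with earlier results of these data known. Named from each list were up to 4 called genes with the largest difference in each direction, or the largest difference where none was called; of the families, any gene. For each factor the 5 genes of highest r were named, with no olfactory or histone genes, antigen receptor segments or predicted genes among them. Cd4, Cd8a, Klrb1c and Ncr1, defining markers outside this rule, were named after their values were seen. Alternatives were a filter on dim genes, another quantile normalization, centring on array medians, the mean of probe sets, weights per array, a trended robust prior, a replicate block, and leaving out each array.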

Additional observations from a re-analysis of the deposited data

How the results depend on the processing

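Each comparison was refitted under 17 to 19 alternatives, and no called difference reversed. From HSC to LMPP, 2 factors were called, but 0 with centred arrays, 0 with array weights, 1 with a trended robust prior and 0 with the replicate number as a block. Leaving out 1 array in turn gave 0 to 2 there. From LMPP to ETP leaving out 1 array gave 1 to 2 factors. Between thymus and marrow the contrast of the 6 group means gave 5 in place of 2. Without CLP replicate 1, 1 factor was called in CLP against HSC (also without HSC replicate 1) in place of 2, and 1 in DN2 against CLP in place of 3. In ETP against HSC 1 was called without ETP replicate 1 in place of 3. In DN2 against LMPP 1 was called without either LMPP array and 4 without either HSC array, in place of 2. The counts of called factors in the other pairs of populations and the F test stayed within 1.5 times their value. The numbers of all genes called moved as well: without DN3 replicate 2 from 1310 to 695 in DN3 minus ETP, without ETP replicate 2 from 460 to 228 in ETP minus LMPP, and in thymus minus marrow from 476 to 176 without DN3 replicate 1 and 850 with array weights. The shares of all genes called move with them.

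The replicate numbers were not taken to pair the samples. Deviations of same-numbered arrays correlated over 0.1 in 4 of 10 pairs of populations. The 6 pairs among LMPP, CLP, ETP and DN3 gave 0.0703 to 0.283, and the 4 with HSC -0.258 to -0.0876. With 2 arrays per population, a negative value means that arrays of unlike number deviated together. These values therefore do not decide whether arrays were paired. The block took the numbers as given, and another numbering of HSC was not tested. With the replicate block 1285 genes were called from ETP to DN3, against 1310 without it. Among the factors the block ended the calls of Ets1 and Ets2 from HSC to LMPP (limma adjusted p = 0.0700 and 0.0503) and of Bcl11b in DN2 against CLP (limma adjusted p = 0.0706) and no other. It also ended the call of Bcl11a from DN2 to DN3 (limma adjusted p = 0.0544). Of the genes called between thymus and marrow 60.7% were higher in thymus, and 48.9% after another quantile normalization. From LMPP to CLP 52.6% of called genes were higher, and 63.5% with centred arrays. With 1 DN2 array and 2 of each other population, and without detection calls, small changes near background cannot be measured; the causes of the lost calls were not tested.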
